A study of Sus scrofa with 16 samples.

Results

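These results concern 10 genes that hold cells out of division or answer p53, among 29552 named genes in the count table: the CDK inhibitors CDKN1A, CDKN1B, CDKN1C and CDKN2B, the p53 antagonist MDM2, the sestrins SESN1, SESN2 and SESN3, the repair gene XPC and the stress cytokine GDF15. They were chosen by name from what is known of them, with earlier results of these data in view, and all 10 were found in the table and passed the filter on low counts. The study sequenced polyA RNA of aortic valve interstitial cells, fibroblast-like cells that populate the leaflets, taken from pigs 5 to 6 months old. Cells were kept for 48 hours in medium with 1% fetal bovine serum, either on a PEG-norbornene hydrogel of about 5.8 kPa, where the labels call them quiescent fibroblasts, or on tissue culture plastic, where they call them myofibroblasts. Cells of each sex were grown on each surface, which gave 4 groups of n = 4 libraries, with no genetic change and no added agent named in the labels. A biological replicate carries a number from 1 to 4 within a sex. The labels do not say whether it is 1 animal or several pooled, and p-values measure the spread between these libraries.

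A CDK inhibitor binds cyclin-dependent kinases and so stops a cell before it copies its DNA. The Cip/Kip proteins p21 (CDKN1A), p27 (CDKN1B) and p57 (CDKN1C) bind cyclin-CDK pairs of several kinds, while the INK4 protein p15 (CDKN2B) binds the kinases CDK4 and CDK6 and is known as a gene that TGF-beta induces. The transcription factor p53 is activated by DNA damage and other stress, and it induces CDKN1A, MDM2, SESN1, SESN2, XPC and GDF15, among many others. MDM2 in turn marks p53 for breakdown, which closes a feedback loop. Several of the 10 genes also answer other factors: SESN3, SESN1 and CDKN1B are known FOXO targets, and SESN2 and GDF15 are induced by ATF4 under amino acid or endoplasmic reticulum stress. In fibroblasts, growth arrest and the myofibroblast state are both linked to these inhibitors.

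Library totals lay between 16.93 and 27.48 M counts (M for mega). Male gel 2 had the lowest total and the fewest genes with a count, 15476, and in the change from gel to plastic of the 8 numbered cultures male 2 was the lowest or the highest for 6 of the 10 genes. Levels are given as CPM, read counts scaled to a common library size with the TMM factors of edgeR. Valve interstitial markers such as VIM (4829 to 8174 CPM) and COL1A1 (8826 to 17518 CPM) were high in all libraries. The list of 12 such markers was not level between surfaces: 3 were higher and 5 lower on plastic in male cells, and 1 higher and 6 lower in female cells, with median log2 changes of -0.49 and -0.84. Among those that fell were PDGFRA (-2.44 and -2.38), POSTN (-2.36 and -2.27), LUM (-1.62 and -1.42) and DCN (-1.33 and -1.41). COL3A1 was called higher in both sexes (0.48 and 0.53), and COL1A1 in male cells (0.45). The summed list did not fall: it ran from 44777.5 to 49562.1 CPM on male gel and 48831.8 to 55428.6 CPM on male plastic. In female libraries it ran from 42447.5 to 50730.5 CPM on gel and 44833.2 to 52098.4 CPM on plastic. The 14 leukocyte markers summed to 6.21 to 39.8 CPM, with PTPRC at no more than 0.0351 CPM, and the summed epithelial and erythroid list (8 genes) at most 0.452 CPM. The 18 endothelial markers summed to 332 to 547 CPM on male gel and 366 to 595 CPM on male plastic, with MMRN1 at 0. In female libraries they summed to 347 to 556 CPM on gel and 375 to 911 CPM on plastic. Of 17 tested, 2 were called higher and 0 lower on plastic in male cells, and 3 and 0 in female cells (median log2 changes of 0.43 and 0.73). Of the 18 markers, CDH5 ran from 4.97 to 174 CPM and was highest on plastic in female 1 (174 CPM), female 4 (88.8 CPM) and male 4 (87.9 CPM). The 15 cardiac and skeletal muscle markers summed to 21.9 to 45.5 CPM on gel and 214 to 725 CPM on plastic, with TNNT2, MYL7 and NPPA at 0 in every library. The 11 pericyte and smooth muscle markers summed to 574 to 870 CPM on gel and 1913 to 3577 CPM on plastic. Of the 10 tested, 8 were called higher and 2 lower on plastic in each sex, and ABCC9 was among the lower (-1.87 and -1.88). All surface changes below run beside the rises of these muscle and pericyte sums, the called endothelial rises and the mixed changes of valve interstitial markers. The part of those marker changes in the results below was not tested. Bulk RNA cannot tell fewer cells of a type from less RNA per cell.

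The first question was what plastic changed in the 10 genes, in male and in female cells. The same 5 genes were called in both sexes, at an adjusted p under 0.05 by edgeR's quasi-likelihood test over 14530 genes: CDKN1B and CDKN2B rose, and SESN1, SESN3 and XPC fell. In male cells these 5 of 10 stand beside 25.8% of all tested genes called (12.9% higher and 12.9% lower), and in female cells 5 of 10 stand beside 23.9% (12.7% higher, 11.3% lower). A call in the same direction in both sexes was made for 16.5% of all tested genes, 9.24% higher and 7.27% lower. At an unadjusted p under 0.05 the counts were 7 of 10 in each sex, beside 37.5% (male) and 35.5% (female) of all tested genes. The plastic and gel libraries did not overlap for 5 genes in male cells (CDKN2B, MDM2, SESN1, SESN3 and XPC) and for 4 in female cells (CDKN1B, CDKN2B, SESN1 and SESN3), beside 28.9% and 27.7% of all tested genes. The median log2 change of the 10 genes was -0.20 in male and -0.39 in female cells, against -0.03 and -0.04 over all tested genes. The 2 surface contrasts share no library, but they come from 1 fit over 16 libraries with a common estimate of spread, so they are not independent. In fits on only the 8 libraries compared, CDKN1B in male cells and XPC in female cells were not called. Without male gel 2 and female plastic 4, 5 genes were again called in each sex (2 higher, 3 lower), but without male plastic 1 the male count was 3. Over all genes, fits that left out 1 library called 2859 to 3961 in male cells.

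**Figure D1:**
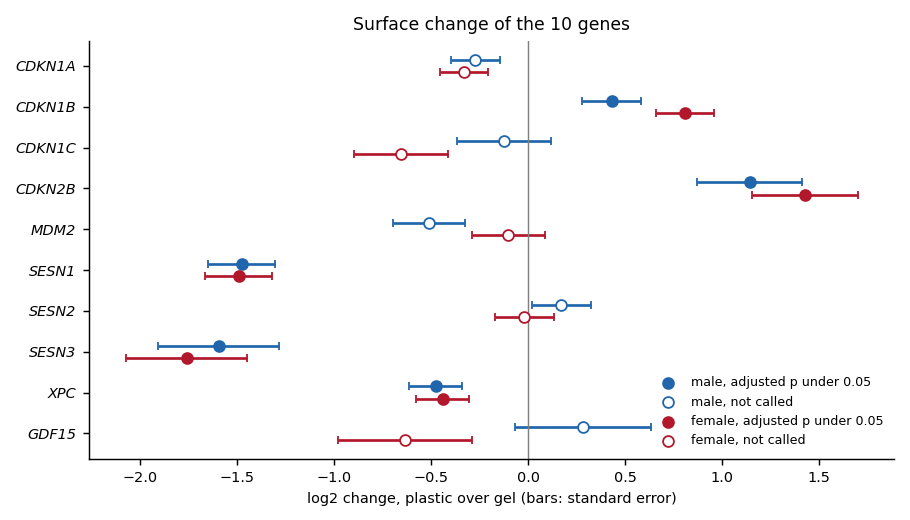
Log2 change of plastic over gel (horizontal axis) for each of the 10 genes, male in blue and female in red, with the standard error as bars and filled points for an adjusted p under 0.05. SESN1 and SESN3 lie between -1.76 and -1.48, CDKN2B lies at 1.14 and 1.43, and CDKN1A, CDKN1C, MDM2, SESN2 and GDF15 have open points.

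Among the CDK inhibitors, CDKN2B (p15; chromosome 1, 200666250 to 200770880 on Sscrofa11.1) had the largest rise. Its levels in male gel 1 to 4 were 7.19, 11.13, 7.75 and 13.3 CPM, and in male plastic 17.1, 20.4, 21.2 and 28.0 CPM. In female gel they were 10.9, 6.496, 5.71 and 11.6 CPM, and in female plastic 25.7, 20.2, 15.8 and 31.7 CPM. Every plastic library thus lay above every gel library, in both sexes. The log2 change was 1.14 in male cells (SE 0.27, adjusted p = 0.00525), a 2.21-fold rise, and 1.43 in female cells (SE 0.27, adjusted p = 0.00103), a 2.69-fold rise. Without male 4, female 1 and female 4, the cultures highest in CDH5, the changes were 1.19 and 1.58, and both remained called.

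CDKN1B (p27; chromosome 5, 59731224 to 59735831) also rose on plastic, by less. In female cells it went from 58.8, 68.3, 58.4 and 59.2 CPM on gel to 83.7, 115, 96.4 and 133 CPM on plastic, with no overlap, a log2 change of 0.81 (SE 0.15, adjusted p = 0.000922). In male cells it went from 64.7, 94.8, 58.9 and 67.6 CPM on gel to 92.4, 97.5, 87.3 and 108 CPM on plastic, a log2 change of 0.43 (SE 0.15, adjusted p = 0.0457). The male groups overlapped through male gel 2, at 94.8 CPM. That male call was fragile: it was lost on leaving out any 1 of 13 of the 16 libraries (all but male gel 2, female plastic 1 and female plastic 4), at adjusted p from 0.0509 to 0.125. Where the library left out was female and the call was lost, the change stayed at 0.43 (adjusted p from 0.0509 to 0.0566). The call was kept with the replicate as a block (0.45, adjusted p = 0.018) and by DESeq2 (0.44, adjusted p = 0.0315). Without male gel 2 the change was 0.59 (adjusted p = 0.00381), and without the 3 cultures high in CDH5 it was 0.36 (adjusted p = 0.151). The level was higher on plastic in 8 of 8 cultures paired by number.

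CDKN1A (p21; chromosome 7, 32354776 to 32363771), the best known p53 target, did not pass the test in either sex and ran the other way from p27. On gel its levels were 217, 158, 179 and 190 CPM in male and 237, 221, 196 and 204 CPM in female libraries. On plastic they were 146, 147, 156 and 167 CPM in male and 221, 153, 151 and 158 CPM in female libraries. The male groups overlapped through male gel 2 and the female groups through female plastic 1, yet the plastic value was the lower one in 8 of 8 cultures. The log2 change was -0.27 in male (SE 0.13, adjusted p = 0.124) and -0.33 in female cells (SE 0.13, adjusted p = 0.0673). In female cells it passed with the replicate as a block (-0.35, adjusted p = 0.0243), without female plastic 1 (-0.47, adjusted p = 0.00554) and without male gel 2 (-0.33, adjusted p = 0.0416).

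CDKN1C (p57; chromosome 2, 2019391 to 2022092), an imprinted gene in mammals studied for it, was low and uneven. Male gel held 9.29, 4.97, 7.23 and 6.46 CPM and male plastic 6.00, 6.43, 7.37 and 5.92 CPM. Female gel held 6.42, 11.4, 9.92 and 6.70 CPM and female plastic 4.22, 7.72, 5.85 and 4.05 CPM. Both pairs of groups overlapped. The log2 change was -0.13 in male (SE 0.24, adjusted p = 0.747) and -0.66 in female cells (SE 0.24, adjusted p = 0.0602). The female change passed with the replicate as a block (-0.66, adjusted p = 0.0108), by DESeq2 (-0.63, adjusted p = 0.0479), and without female gel 1, female gel 4, female plastic 2 or male gel 2 (adjusted p from 0.0208 to 0.048).

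**Figure D2:**
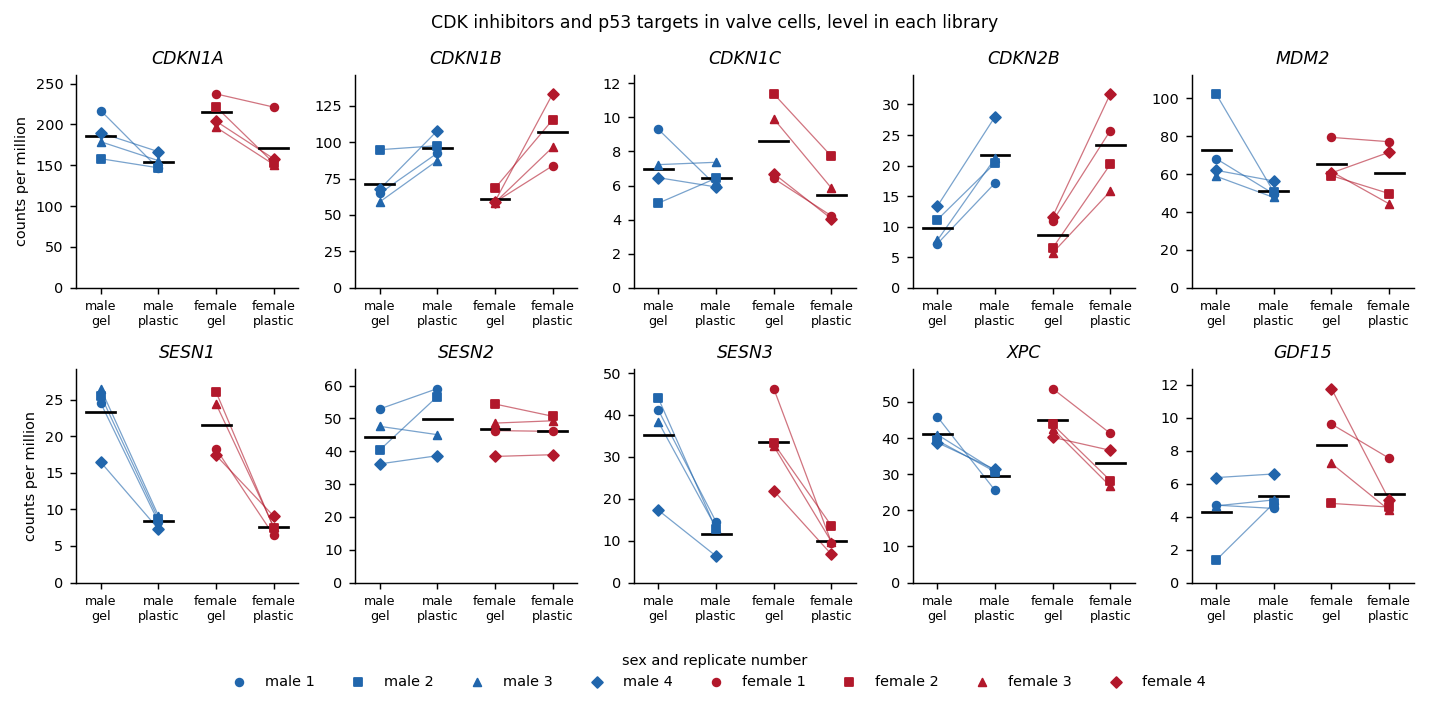
Level of each of the 10 genes in CPM (vertical axes from 0, scaled gene by gene) in the 16 libraries, male in blue and female in red, with lines joining libraries of the same sex and number and black bars for group means. SESN1 and SESN3 drop along all 8 lines and CDKN2B climbs along all 8, while male gel 2 stands apart for MDM2 (102 CPM) and GDF15 (1.36 CPM).

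MDM2 (chromosome 5, 33105717 to 33137602), the ubiquitin ligase of p53, was not called in either sex. Male gel held 68.2, 102, 58.9 and 62.1 CPM, and male plastic 49.6, 50.6, 47.7 and 56.4 CPM. Female gel held 79.4, 59.2, 61.4 and 60.7 CPM, and female plastic 77.1, 49.8, 44.3 and 71.6 CPM. All 4 male plastic libraries lay below all 4 male gel libraries, whereas the female groups overlapped. In male cells the log2 change was -0.51 (SE 0.19, adjusted p = 0.0554), and in female cells it was -0.10 (SE 0.19, adjusted p = 0.735). The male value passed with the replicate as a block (-0.48, adjusted p = 0.0274), by DESeq2 (-0.50, adjusted p = 0.0469), without male gel 3 or 4 or female plastic 3 (adjusted p from 0.0382 to 0.0469) and without the 3 cultures high in CDH5 (-0.62, adjusted p = 0.027). Without male gel 2, whose MDM2 was the highest of the 16 libraries, it was -0.30 (adjusted p = 0.201).

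The sestrins, which restrain TORC1 through the GATOR complexes when amino acids are short, parted ways. SESN1 (chromosome 1, 75056731 to 75170374) went from 24.6, 25.6, 26.5 and 16.5 CPM on male gel to 8.27, 8.71, 9.14 and 7.31 CPM on male plastic. Female gel held 18.3, 26.1, 24.4 and 17.4 CPM, and female plastic 6.44, 7.44, 7.61 and 9.07 CPM. The lowest gel library, at 16.5 CPM, was above the highest plastic library, at 9.14 CPM. SESN1 fell by 1.48 on the log2 scale in male cells (SE 0.17, adjusted p = 1.29e-05) and by 1.49 in female cells (SE 0.17, adjusted p = 1.23e-05), so that it was 2.79-fold and 2.82-fold higher on gel. ARMC2, whose annotated span overlaps that of SESN1, had group means of 2.04 to 2.81 CPM.

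SESN3 (chromosome 9, 27207239 to 27279205), a sestrin known as a FOXO target, dropped as far but differed more between cultures. Male gel held 41.1, 43.9, 38.3 and 17.2 CPM and male plastic 14.5, 12.7, 13.0 and 6.30 CPM. Female gel held 46.3, 33.2, 32.5 and 21.9 CPM and female plastic 9.55, 13.5, 9.72 and 6.71 CPM. Every gel library again lay above every plastic library, and male 4 and female 4 had the lowest level of their sex on both surfaces. SESN3 fell by 1.60 in male (SE 0.31, adjusted p = 0.00124) and by 1.76 in female cells (SE 0.31, adjusted p = 0.000625), which made it 3.02-fold and 3.39-fold higher on gel.

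SESN2 (chromosome 6, 85321982 to 85348044), a sestrin that senses leucine, was not called. It ran from 36.1 to 52.9 CPM on male gel, 38.6 to 59.1 CPM on male plastic, 38.4 to 54.4 CPM on female gel and 38.9 to 50.6 CPM on female plastic. The groups overlapped in both sexes. The log2 change was 0.17 in male (SE 0.15, adjusted p = 0.446) and -0.02 in female cells (SE 0.15, adjusted p = 0.941), with 95% intervals of -0.16 to 0.50 and -0.35 to 0.31 from the SE and 12 residual degrees of freedom. SESN1 and SESN3 lay far outside these intervals, but the differences between the sestrins were not tested.

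XPC (chromosome 13, 70348841 to 70397194), the protein that finds bulky DNA lesions for nucleotide excision repair, fell on plastic in both sexes. Its male levels were 45.9, 39.4, 41.0 and 38.8 CPM on gel and 25.5, 30.7, 31.0 and 31.3 CPM on plastic, with no overlap. The female levels were 53.7, 43.8, 42.6 and 40.2 CPM on gel and 41.3, 28.2, 26.7 and 36.6 CPM on plastic, with overlap through female plastic 1. XPC fell by 0.48 in male (SE 0.14, adjusted p = 0.0168) and by 0.44 in female cells (SE 0.14, adjusted p = 0.026), and it was lower on plastic in 8 of 8 cultures. The male call was lost without male plastic 1 (adjusted p = 0.0593), and the female call without female gel 1, female plastic 2 or female plastic 3 (0.0837 to 0.0902). TMEM43, whose span overlaps the end of XPC, had group means of 176 to 203 CPM.

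GDF15 (chromosome 2, 59409035 to 59411356), a secreted member of the TGF-beta family that rises under cell stress, was low and was not called. Male gel held 4.70, 1.36, 4.66 and 6.37 CPM and male plastic 4.50, 4.81, 5.01 and 6.59 CPM. Female gel held 9.62, 4.80, 7.23 and 11.8 CPM and female plastic 7.55, 4.58, 4.40 and 5.02 CPM. The groups overlapped in both sexes. In male cells the log2 change was 0.28 (SE 0.35, adjusted p = 0.6), and without male gel 2, which held 24 GDF15 reads, it was -0.00018. In female cells it was -0.63 (SE 0.35, adjusted p = 0.205).

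The second question was whether male and female cells differed. On gel, 0 of 10 genes were called by edgeR, beside 0.103% of all tested genes, and 1 of 10 had an unadjusted p under 0.05, beside 3.85%. On plastic 0 of 10 were called, beside 0.124%, with 0 at an unadjusted p under 0.05, beside 1.95%. Male and female libraries overlapped for all 10 genes on both surfaces, while 2.03% (gel) and 2.85% (plastic) of all tested genes had no overlap. For the difference between the surface changes of the sexes 0 of 10 were called, beside 0% of all tested genes, and 0 had an unadjusted p under 0.05, beside 4.36%. DESeq2 and limma-voom also called 0 of 10 in each of these comparisons. The gene with the unadjusted p under 0.05 was GDF15, with female gel above male gel by 0.96 (SE 0.35, 95% interval 0.20 to 1.72, unadjusted p = 0.0141, adjusted p = 0.852 by edgeR). The groups overlapped, and without male gel 2 the difference was 0.68.

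For the difference of surface changes, the interval of CDKN1B was -0.09 to 0.84 around 0.38, and that of CDKN1C -1.28 to 0.21 around -0.53. MDM2 had 0.41 (-0.17 to 0.99) and GDF15 -0.92 (-1.99 to 0.16). The surface change of MDM2 or CDKN1B is therefore not shown to differ between male and female cells, and these intervals do not show that it was equal. For SESN1 the difference was -0.02, with an interval of -0.54 to 0.51, and for XPC it was 0.04 (-0.38 to 0.46).

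The wider p53 pathway was read from lists fixed by name, also with earlier results of these data known. Of 19 tested p53 regulators, 2 were higher and 4 lower on plastic in male cells and 2 and 2 in female cells, with medians of -0.13 and -0.01. Over all tested genes 25.8% were called in male and 23.9% in female cells. Without the 3 cultures high in CDH5 the counts were 2 and 2 in male and 1 and 1 in female cells, and without male gel 2 and female plastic 4 they were 2 and 3 in male and 2 and 4 in female cells. With fewer libraries, the fit without the 3 cultures called 1968 genes in female cells over all tested genes, against 3476 in the full fit. Its female list counts here and below stand beside that lower total. RCHY1, another ubiquitin ligase of p53, fell (log2 changes of -0.57 in male and -0.43 in female cells). HIPK2, a kinase that phosphorylates p53, rose by 1.16 and 1.07 (SE 0.14 each). MDM4, the partner of MDM2, fell in male cells (-0.33, adjusted p = 0.0262) and had -0.12 in female cells (adjusted p = 0.45). CDKN2A was not analysed here.

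Of 38 other tested p53 targets, 5 were higher and 7 lower in male cells, and 6 higher and 13 lower in female cells, with medians of -0.23 and -0.30. Over all tested genes, as given above, 12.9% were higher and 12.9% lower in male cells, and 12.7% and 11.3% in female cells. PMAIP1 (Noxa), which promotes cell death, fell, with log2 changes of -2.07 (SE 0.24) in male and -1.65 (SE 0.23) in female cells. The kinase gene PLK2 (-1.65 and -1.72) and STEAP3, an iron reductase (-1.55 and -1.64), fell too. The death receptor FAS rose by 1.02 and 1.08, PLK3 by 1.13 and 1.07, and the small GTPase gene RHOB by 1.12 and 0.97. The male count of lower genes was 14 without male gel 2 and female plastic 4, and the female count was 5 without the 3 cultures high in CDH5. That last fit lacks female 1 and female 4, and the female median of the list was -0.27 there, against -0.30.

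**Figure D3:**
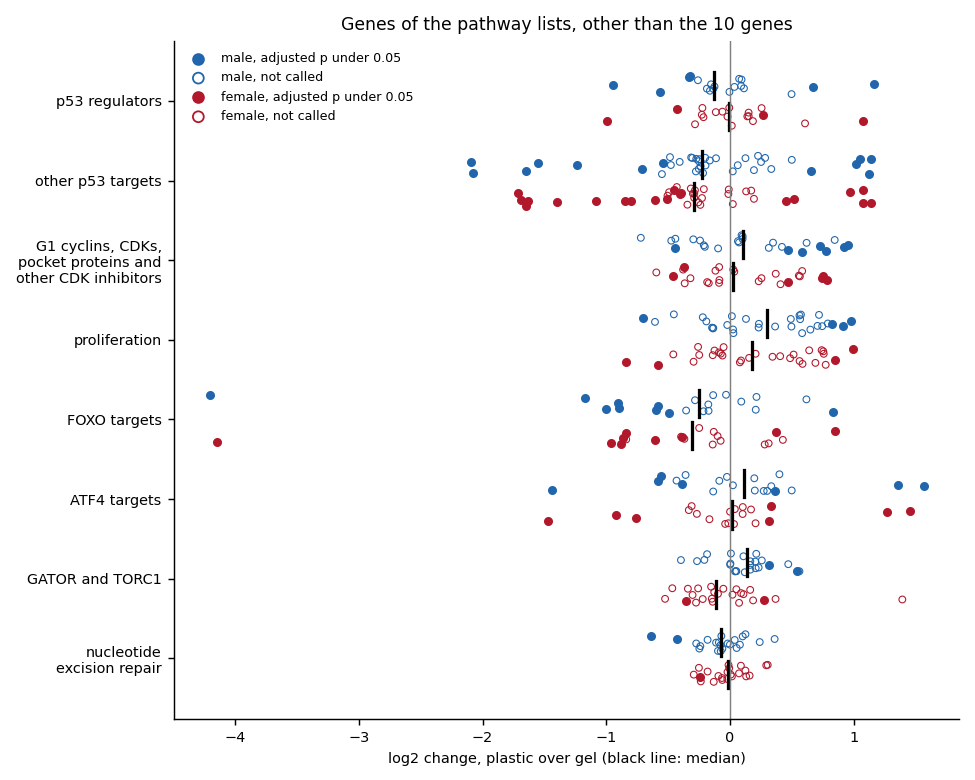
Log2 change of plastic over gel for each tested gene of the 8 pathway lists, male in blue and female in red, with filled points for an adjusted p under 0.05 and black lines for medians. The medians lie between -0.31 and 0.30, and the p53 target list spreads to both sides of 0.

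Partners of the CDK inhibitors were examined next, and their counts stand beside 25.8% (male) and 23.9% (female) of all tested genes called. Of 25 cyclins, CDKs, pocket proteins and further inhibitors, 6 were higher and 1 lower in male cells (median 0.10), and 4 and 2 in female cells (median 0.03; 3 and 0 without the 3 cultures high in CDH5). CDK6, a kinase that p15 binds, rose by 0.58 (SE 0.13) in male and 0.75 (SE 0.13) in female cells. CDK4, the other kinase that p15 binds, fell in female cells (-0.37, adjusted p = 0.00819 by edgeR). In male cells it had -0.20 and was not called (adjusted p = 0.122 by edgeR). The cyclin gene CCND3 rose by 0.95 and 0.75, and RB1, the pocket protein that these kinases phosphorylate, by 0.47 and 0.79. Of 30 proliferation genes, 3 were higher and 1 lower in male cells, and 2 and 2 in female cells (medians 0.30 and 0.18). In each sex 26 of the 30 were not called, so in this fit the called part was below the share over all tested genes. CENPF, a centromere protein gene, rose by 0.91 and 0.99, as did the kinesin gene KIF23, by 0.83 and 0.85. GINS2, a subunit of the replicative helicase complex, fell (-0.70, adjusted p = 0.00156, and -0.84, adjusted p = 0.000373). Without the 3 cultures high in CDH5 the counts were 8 and 2 in male and 0 and 2 in female cells. With the replicate as a block the counts were 10 and 2 in male and 8 and 3 in female cells, so the called part was not below the share there. Over all genes no alternative fit called more than 4319 in male or 4444 in female cells. MKI67, the gene of the Ki-67 antigen, had 0.79 in male (adjusted p = 0.058) and 0.77 in female cells (adjusted p = 0.0659). The 30 genes summed to 545 to 794 CPM on male gel and 697 to 815 CPM on male plastic. They summed to 498 to 893 CPM on female gel and 599 to 1371 CPM on female plastic, with the highest sum in female plastic 1. The ranges of gel and plastic overlapped in each sex, which does not show that the sums were equal.

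FOXO and ATF4 lists bear on the sestrins and GDF15. Their counts stand beside 25.8% (male) and 23.9% (female) of all tested genes called. Of 20 FOXO targets, 1 was higher and 8 lower in male cells, and 2 and 7 in female cells, with medians of -0.25 and -0.31. Catalase (CAT, -1.17 and -0.87) and the autophagy gene GABARAPL1 (-0.91 and -0.88) fell. SOD2, which NF-kB also induces, had the largest change named here, -4.20 and -4.15. IRS2, an adaptor of insulin signalling, rose by 0.84 and 0.85. Of 20 ATF4 targets, 3 were higher and 4 lower in male cells, and 4 and 3 in female cells (2 and 1 without the 3 cultures high in CDH5). VLDLR rose by 1.36 and 1.27, ATF3 by 1.56 and 1.45, and DDIT4, an inhibitor of TORC1 signalling, fell (-1.44 and -1.47).

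Partners of the sestrins and of XPC were read the same way. The parts called in both lists were below the 25.8% (male) and 23.9% (female) over all tested genes. Of 24 GATOR and TORC1 genes, 2 were higher and 0 lower in male cells, and 1 and 1 in female cells (medians 0.14 and -0.11). Without the 3 cultures high in CDH5 the counts were 1 and 0 in male and 0 and 0 in female cells. TSC1, a TORC1 inhibitor, rose by 0.31 and 0.27, while NPRL2, a GATOR subunit, had 0.47 (adjusted p = 0.088) and 0.07 (adjusted p = 0.825). Of 22 nucleotide excision repair genes, 0 were higher and 2 lower in male cells (0 and 1 without the 3 cultures high in CDH5). In female cells 0 were higher and 1 lower (0 and 0 without those cultures, and 0 and 0 with the replicate as a block), with medians of -0.07 and -0.02. RAD23B, the binding partner of XPC, had -0.24 (adjusted p = 0.188) and 0.16 (adjusted p = 0.415).

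The third question was whether the p53 targets among the 10 genes varied together between libraries of one surface. Over CDKN1A, MDM2, SESN1, SESN2, XPC and GDF15 there were 15 pairs on each surface, 30 relations in all, each over 8 libraries with exact permutation p-values, two-sided. On gel 0 pairs passed after Benjamini-Hochberg adjustment, 1 had an unadjusted p under 0.05, and the median r was 0.09. On plastic 2 pairs passed and 7 had an unadjusted p under 0.05, with r from -0.71 to 0.91. The median r on plastic was -0.26, and r was positive for 7 of the 15 pairs (8 of 15 on gel). Without the 2 libraries farthest from the median of the first gene the plastic median was 0.32.

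The plastic pairs that passed were MDM2 with XPC and CDKN1A with GDF15. MDM2 and XPC had r = 0.91 (exact permutation p = 0.0029, adjusted 0.0435) and rho = 0.81 (exact permutation p = 0.0218, adjusted 0.0933). CDKN1A and GDF15 had r = 0.90 (exact permutation p = 0.00191, adjusted 0.0435) and rho = 0.88 (exact permutation p = 0.00724, adjusted 0.0724). Without the 2 libraries farthest from the median, r was 0.52 for MDM2 and XPC (without female plastic 1 and 4) and 0.62 for CDKN1A and GDF15 (without female plastic 1 and male plastic 4), so the relations as called rested on those libraries. Relative to group means both had an adjusted p under 0.05 again, with r = 0.90 (permutation adjusted p = 0.0484) and r = 0.95 (permutation adjusted p = 0.0164). Without the 2 farthest libraries r was 0.75 and 0.78. Those permutations ran over all 8 libraries although means were removed within each sex, so their p-values are not exact and may be too small. Female plastic 1 had the highest CDKN1A (221 CPM), MDM2 (77.1 CPM), XPC (41.3 CPM) and GDF15 (7.55 CPM) of the 8 plastic libraries. It also had the highest CDH5, 174 CPM, and the part of that in these relations was not tested. XPC and GDF15 passed by rank alone (rho = 0.95, exact permutation p = 0.00114, adjusted 0.0342), with r = 0.77 (adjusted 0.144). Relative to group means that pair did not pass (rho = 0.90, permutation adjusted p = 0.0684, and r = 0.80, permutation adjusted p = 0.0682).

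**Figure D4:**
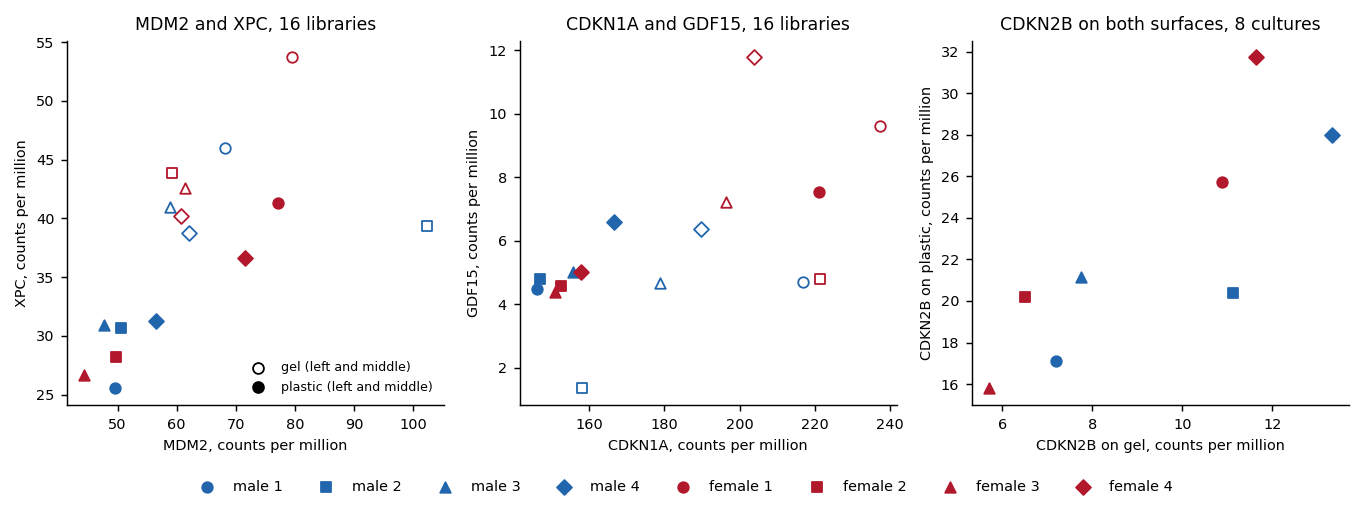
Left and middle, levels in CPM of MDM2 and XPC and of CDKN1A and GDF15 in the 16 libraries (open symbols gel, filled symbols plastic). Right, CDKN2B on gel against CDKN2B on plastic for the 8 cultures paired by number. Male is blue and female red, and symbol shapes give the number. Female plastic 1 (filled red circle) lies at 77.1 CPM of MDM2 and 41.3 CPM of XPC, and the 3 highest CDKN2B levels on plastic belong to female 4, male 4 and female 1. Axes do not start at 0.

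A culture's level on gel and on plastic could also be set side by side, a comparison chosen after the values were seen. Over the 8 cultures, CDKN2B had r = 0.84 (exact permutation p = 0.0115, adjusted 0.0913 over the 10 genes) and rho = 0.88 (exact permutation p = 0.00724, adjusted 0.0724). Relative to group means the values were r = 0.91 (permutation p = 0.000744, adjusted 0.00744) and rho = 0.98 (permutation p = 0.000397, adjusted 0.00397). Without the 2 farthest cultures r was 0.82. The permutations ran over all 8 cultures although means were removed within each sex, so these p-values are not exact and may be too small. CDKN2B was the single gene of the 10 that passed, and only relative to group means, by these inexact p-values. Its highest plastic levels were those of female 4, male 4 and female 1, the cultures with the highest CDH5, and the part of endothelial RNA in that order was not tested. SESN3 had r = 0.81 (exact permutation p = 0.0183, adjusted 0.0913), but -0.04 without the 2 farthest cultures.

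Some tested genes followed the 10 most closely over the 16 libraries, by Pearson's r of log2 CPM among genes with a mean of at least 5 CPM. These values mix the surface difference with the differences between cultures and are a description. CDKN1A was followed by RAB3D (r = 0.92) and by AEN (r = 0.92), itself a p53 target. CDKN1B had DIAPH2 (0.97) and PPP2R3A (0.97), and CDKN2B had the collagen gene COL8A1 (0.98) and DOCK5 (0.96). MDM2 had CA5B (0.96) and TMEM184C (0.95), and XPC had OXA1L (0.92) and SMAD3 (0.92). SESN1 was followed by the complement gene C1R (0.97) and HVCN1 (0.97), and SESN3 by TSPAN11 (0.96) and PLCXD3 (0.96). SESN2 had WISP2 (0.86) and TSC22D3 (0.85), CDKN1C had SPATA20 (0.90) and NUDT21 (0.89), and GDF15 had TATDN2 (0.93) and MINK1 (0.91).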

How the data were processed

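Gene counts of 16 polyA RNA libraries were used, in 4 groups taken from the sample titles. The authors deposited raw counts per gene. Per the submitters' processing notes, the build was Sscrofa11.1 and the tools were HISAT2 2.1.0, featureCounts, SAMtools 1.3.1, FastQC 0.11.5 and Trimmomatic 0.36. The strand setting of counting is not given in the sources used here, so overlapping genes cannot be told apart. Of 29576 entries, 24 carried numbers in place of names (0.169% of counts) and were left out. Coordinates come from RefSeq on the same build. No pair of libraries of a group was a copy (chi-square per degree of freedom 9.93 to 81.9 over 24 pairs).

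Of 22139 genes with a count, 14530 passed filterByExpr and were tested with edgeR 4.0.16 in R 4.3.3 (TMM, quasi-likelihood F test, 4 group means over 16 libraries, 12 residual degrees of freedom, Benjamini-Hochberg over all tested genes, call under 0.05). Changes are log2 with standard errors (SE). Alternatives were RLE factors, DESeq2 1.42.0, limma-voom (limma 3.58.1), no filter, CPM of at least 1 in 4 libraries, a replicate block, a fit on just the 8 libraries of a comparison, and leave-one-out fits over the 16 libraries. Gel and plastic libraries of one sex and number deviated together from their group means (r from 0.13 to 0.49 over 8 pairs). Among the libraries of its own sex on the other surface, each of 16 libraries had its highest r with its own number. The numbers were therefore taken to pair gel with plastic libraries, which the labels do not state. Male and female libraries of number 4 also deviated together (r = 0.57 on gel and 0.29 on plastic), while those of number 1 did not (-0.20 and -0.13). What a number shares between the sexes was not tested. Correlations were taken on the log2 scale of CPM (prior count 2). The scripts were tested on simulated data.

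The genes, lists and tests were chosen with earlier results of these data known. The naming rule took all 10 genes, up to 3 genes per direction and list among those called alike in both surface contrasts (of which the text describes a part), MDM4, CDKN2A, RAD23B, NPRL2 and MKI67 whatever their result, and the 2 genes most like each of the 10. One further gene of the rule is not reported here. CDK4, and other genes named as markers or overlapping genes, were picked after their values were seen.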

Additional observations from a re-analysis of the deposited data

Results flagged for a closer look

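In 40 groups of 4 libraries (10 genes in each group), 4 libraries lay far from the other libraries of their group by Dixon's criterion at the 95% level (the gap to the nearest library over the group's range). Chance alone puts about 1 in 20 groups there. CDKN1A was high in female plastic 1 (221 CPM, against 151 to 158 in the other libraries of that group). CDKN1B was high in female gel 2 (68.3 CPM, against 58.4 to 59.2). MDM2 was high in female gel 1 (79.4 CPM, against 59.2 to 61.4). XPC was low in male plastic 1 (25.5 CPM, against 30.7 to 31.3). Their causes were not tested.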

How the results depend on the processing

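The calls of CDKN2B, SESN1 and SESN3 held with their direction under all 50 alternative fits, 25 in each sex. With the replicate as a block, 6 genes were called in male cells (2 higher, 4 lower) and 7 in female cells (2 higher, 5 lower), against 5 and 5. Over all genes the count moved too, from 2859 to 4319 in male and 1968 to 4444 in female cells over the alternatives. These counts of the 10 genes are therefore not read as a result about them. The block added MDM2 in male cells and CDKN1A and CDKN1C in female cells and changed no other call of the 10 genes. Leaving out each library gave 3 to 5 called genes in male cells (3 without male plastic 1) and 4 to 7 in female cells. Over all genes these fits called 2859 to 3961 in male and 2780 to 4444 in female cells. Fitting only the 8 libraries compared lost CDKN1B in male cells (0.44, adjusted p = 0.0625 by edgeR) and XPC in female cells (-0.44, adjusted p = 0.063). The count over all genes in female cells, 3476, was 1968 without male 4, female 1 and female 4, an alternative chosen after the data were seen, with fewer samples. The median r of the p53 target pairs on plastic, -0.26, was 0.32 without the 2 libraries farthest from the median of the first gene, and the cause was not tested. Over the single genes and pair medians, 1206 of 1242 alternative values kept their side of the threshold. Of these, 43 had the other sign than the reported value, none of them called (adjusted p of at least 0.839). CDKN1C and GDF15 rest on the fewest reads, 88 to 292 and 24 to 325 per library.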
